A study of Mus musculus with 8 samples.

Results

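The comparison described here sets C2C12 myoblasts kept for 24 h in medium conditioned by CAPAN-1 cells (MBC) against C2C12 myoblasts kept for 24 h in control medium (MBN). It rests on the 2 arrays whose titles name MBC at 24 hours and MBN at 24 hours, out of 8 arrays in the series, and covers 2922 genes. C2C12 is a mouse line of skeletal muscle precursors, grown here in DMEM with 2 mM glutamine and 10% fetal bovine serum, and CAPAN-1 is a human line from a pancreatic cancer. Array A carried the conditioned RNA in Cy5 and the control RNA in Cy3, and array B carried them with the dyes exchanged. Both arrays held the same RNAs, so they were counted as 1 replicate, and an SD over them is technical. The other arrays compare conditioned with control medium at 14 h, or conditioned medium at 14 h or 24 h with control medium at 0 h. The slide is a spotted array of muscle genes that the submitters call Human Array 2.0, and its spots are annotated with human genes although the RNA came from mouse. A spot can therefore report the mouse counterpart or a related transcript.

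Medium conditioned by tumour cells carries the proteins and metabolites those cells release, and it is used on muscle cells as a culture model of cachexia, the loss of muscle in cancer. Muscle wasting is known for the induction of muscle ubiquitin ligases such as TRIM63 (MuRF1) and FBXO32 (atrogin-1), which mark contractile proteins for the proteasome. Myoblasts are dividing precursors that leave the cell cycle and fuse when they differentiate. Regulators such as MYOD1 and MEF2C drive that programme, while ID proteins hold it back.

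The deposited values are signed scores, 1 per spot and array, that compare the channels of a slide. Each array was centred on its median, the spots of a gene were averaged, and all values below are in score units. The labels do not state which way the scores of array B run, so 2 readings are used. In the turned reading the scores are taken as Cy5 over Cy3, and the sign of array B is reversed. In the as-deposited reading both arrays already run as conditioned over control. In both, a positive score is taken as higher in conditioned medium, which is likely from the channels named Test and Reference. Were the scores control over conditioned, every sign would turn. A gene passed the size rule when its mean over both arrays was at least 1 score unit and each array gave at least 0.5 in the same direction. No test exists for this single comparison, and fewer cells of a kind and less RNA per cell cannot be told apart in it.

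With array B turned, muscle fructose bisphosphatase FBP2, the ubiquitin ligase TRIM63, lamin B1 (LMNB1), the survival protein BCL2A1 and the metalloproteinase inhibitor TIMP1 were among the genes that scored highest in conditioned medium. The muscle AMP deaminase AMPD1, the histidine phosphatase PHPT1 and the spindle protein MZT2B were among the lowest. With array B as deposited, the phosphatase DUSP1 scored lowest, and 12 of 66 cytosolic ribosomal proteins scored higher while none scored lower. The turned reading placed 232 genes higher (7.94% of 2922) and 283 lower (9.69%). The as-deposited reading placed 108 higher (3.7%) and 68 lower (2.33%). No gene can pass in both readings, because the sign of array B differs between them.

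As deposited, the arrays ran against each other. The centred scores of array A and array B as deposited had a Pearson correlation of -0.28 and a Spearman correlation of -0.27 across 2922 genes, which are not independent replicates. Both arrays reached 0.5 in the same direction after turning for 330 genes on the higher side and 422 on the lower side. Array A was up and array B turned was down for 203 genes, and the reverse held for 127. The remaining 1840 genes (63.0%) were under 0.5 in size on at least 1 array. The larger counts of the turned reading follow from the sign of this correlation and say nothing about which reading is right. On array A the scores had an SD of 1.45 and ran from -8.66 to 13.8, and on array B the SD was 1.52 and the range -9.94 to 13.2. Most genes have 2 spots next to each other, and such spots correlated at 0.41 on array A and 0.65 on array B over 3305 pairs, with an SD within a pair of 1.06 and 0.927. When every spot of a gene on both arrays had to reach 0.5 in its direction, an added requirement, 136 genes were higher and 166 lower turned, and 51 and 30 as deposited.

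**Figure D1:**
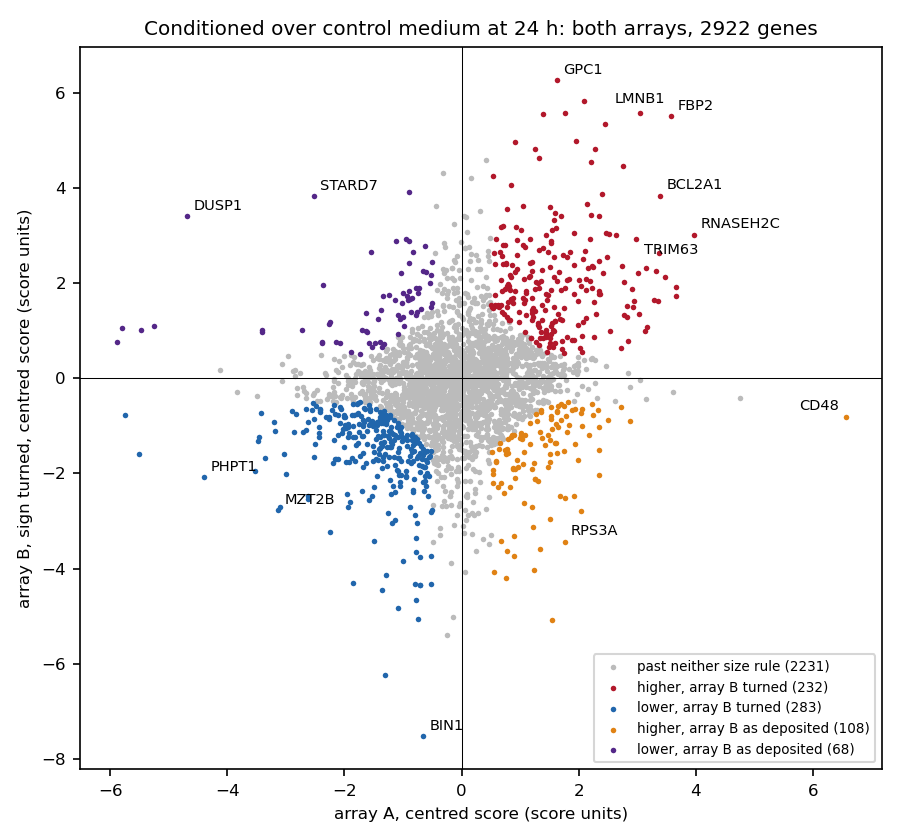
Centred score of each of 2922 genes on array A (horizontal) and on array B with its sign turned (vertical), in score units, at 24 h. Red and blue points passed the size rule with array B turned (232 higher, 283 lower), orange and purple points passed it with array B as deposited (108 higher, 68 lower), and the other 2231 genes passed neither.

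FBP2 (Entrez 8789) removes a phosphate from fructose 1,6-bisphosphate and lets muscle rebuild glycogen from lactate. It scored 3.58 on array A and 5.50 on array B turned, a mean of 4.54 ± 1.36 (SD, n = 2 arrays of the same RNA, here and below), and its spots ran from 2.89 to 4.27 and from 5.12 to 5.88. TRIM63 (Entrez 84676), the muscle ring finger ligase MuRF1, scored 2.98 and 2.93, a mean of 2.95 ± 0.04. The arrays of TRIM63 lay closer together than those of any other of the 10 highest genes. At 14 h, in RNA not shared with 24 h, TRIM63 scored 2.12 on array A and 2.26 on array B turned, and FBP2 scored 3.52 and 1.13. All 4 arrays of both genes were thus above 0 with array B turned. As deposited, the arrays of each gene opposed each other, and the 24 h means were 0.03 for TRIM63 and -0.96 for FBP2.

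The other genes among the 10 highest in the turned reading came from several processes. LMNB1, a protein of the nuclear lamina, scored 3.05 on array A and 5.57 on array B turned. BCL2A1, a BCL2 family protein that opposes apoptosis, scored 3.39 and 3.84. TIMP1, an inhibitor of matrix metalloproteinases, scored 3.37 and 2.63. These 3 genes were above 0 on both 14 h arrays too, with 14 h means of 3.51, 1.59 and 1.72. RNASEH2C, a subunit of the nuclease that cuts RNA in RNA-DNA hybrids, scored 3.97 and 3.02, and its 14 h arrays gave 0.49 and 1.52. MGMT, which repairs alkylated guanine, scored 2.52 and 3.04. DYNLT1, a dynein light chain, scored 2.76 and 4.45. The zinc finger protein ZC3H15 scored 2.48 and 2.56, close to each other. DTX3, a ubiquitin ligase of the deltex family, scored 2.63 and 3.01 at 24 h, while its 14 h arrays lay on either side of 0, at -0.26 and 1.49.

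The promoters of Trim63 and Fbp2 are shown because both were among the 10 highest genes, belong to the lists of protein breakdown and glucose use, and scored above 0 on all 4 matched arrays with array B turned. They are the mouse sequences of RefSeq (GRCm38.p6), the 250 bases before the annotated start, read along the gene. Trim63 lies at chr4:134314870-134315119 on the plus strand and Fbp2 at chr13:62858401-62858650 on the minus strand. Capitals mark E-boxes (CANNTG, the site of MYOD1 and related factors) and, in Trim63, a FOXO motif (GTAAACA), both searched on both strands with no overlap found between them.
Trim63: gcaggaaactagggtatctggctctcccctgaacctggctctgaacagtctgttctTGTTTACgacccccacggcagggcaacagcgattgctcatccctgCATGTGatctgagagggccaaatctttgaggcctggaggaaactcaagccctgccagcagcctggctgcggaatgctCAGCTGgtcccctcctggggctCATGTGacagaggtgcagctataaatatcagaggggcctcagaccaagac
Fbp2: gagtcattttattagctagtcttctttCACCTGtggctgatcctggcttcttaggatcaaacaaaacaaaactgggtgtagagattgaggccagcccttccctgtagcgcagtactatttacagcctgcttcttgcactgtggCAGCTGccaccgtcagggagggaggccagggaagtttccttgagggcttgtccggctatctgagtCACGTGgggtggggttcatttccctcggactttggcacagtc
Trim63 held 3 E-boxes and 1 FOXO motif, the latter starting at position -194 from the gene's start. Fbp2 held 3 E-boxes and no FOXO motif. An E-box was found in 66.2% of 32851 mouse promoters of this length and the FOXO motif in 3.17%, so the E-boxes are common letters. A match describes the sequence only.

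The 10 lowest genes in the turned reading also came from several processes. PHPT1, which removes phosphate from histidine, scored -4.40 on array A and -2.09 on array B turned. AMPD1, the muscle enzyme that deaminates AMP, scored -2.24 and -3.24. ASB12, an ankyrin repeat protein of the SOCS box family, scored -3.0 and -2.01. MZT2B, a partner of gamma tubulin at the spindle, scored -3.13 and -2.77. UACA, a coiled-coil protein, scored -2.61 and -2.55. MZT2B and UACA were low on the 14 h arrays too, with 14 h means of -2.45 and -2.38. GMIP scored -3.11 and -2.71 at 24 h, yet 0.25 and 0.63 at 14 h. GEMIN7, part of the SMN complex that assembles spliceosomal particles, scored -2.62 and -2.47 at 24 h, yet 0.48 and 0.02 at 14 h. The kinase STK25 (-1.95 and -2.42), the phosphatase subunit PPP6R2 (-1.94 and -2.70) and the RAB5 partner RAB5IF (-3.53 and -1.94) completed the 10.

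With array B as deposited, another set of genes led. DUSP1 (Entrez 1843), the phosphatase that switches off MAP kinases, scored -4.69 on array A and -3.41 on array B as deposited, a mean of -4.05 ± 0.91. It was below 0 on both 14 h arrays as well, at -2.89 and -1.12, the only one of the 8 lowest genes of this reading for which that held. STARD7, a lipid transfer protein, scored -2.52 and -3.83, but both of its 14 h arrays were above 0. SET (-2.37 and -1.96), ASB2 (-1.55 and -2.66), PALM (-1.37 and -1.43), OSGIN2 (-1.64 and -1.37), the Z-disc protein LDB3 (-1.35 and -1.73) and the elongation factor EEF1D (-1.42 and -1.24) had 14 h arrays of opposite signs. With array B turned, none of these 8 genes passed, and DUSP1 had a mean of -0.64 ± 5.72.

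The promoter of Dusp1 is shown because DUSP1 led the lower side of that reading at 24 h and was below 0 on all 4 matched arrays. It covers the 250 bases before the start at chr17:26508473-26508722 on the minus strand (RefSeq, GRCm38.p6), with an E-box and a cyclic AMP response element (TGACGTCA) in capitals.
Dusp1: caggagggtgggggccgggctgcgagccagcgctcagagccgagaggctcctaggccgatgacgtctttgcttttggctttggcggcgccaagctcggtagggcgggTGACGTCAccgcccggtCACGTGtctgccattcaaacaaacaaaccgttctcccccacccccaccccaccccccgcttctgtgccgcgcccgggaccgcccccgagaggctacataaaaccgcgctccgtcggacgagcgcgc
The response element starts at position -143 from the gene's start and occurs in 1.55% of the 32851 promoters searched.

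On the higher side of the as-deposited reading, proteins of the ribosome and of translation stood out among the 8 leading genes. RPS3A scored 1.76 on array A and 3.44 on array B as deposited, RPL35A scored 2.04 and 2.80, and RPS12 scored 1.91 and 2.47. The elongation factor EEF1A1 scored 1.63 and 1.57. The histone variant H3-3A (2.35 and 2.04), the exchange factor TRIO (1.77 and 2.52), the actin-binding thymosin TMSB10 (1.68 and 2.47) and the myosin light chain MYL6B (1.98 and 1.72) were the others. Both 14 h arrays lay above 0 for H3-3A, TRIO and TMSB10 and both below 0 for EEF1A1, while those of RPS3A, RPL35A, RPS12 and MYL6B had opposite signs.

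**Figure D2:**
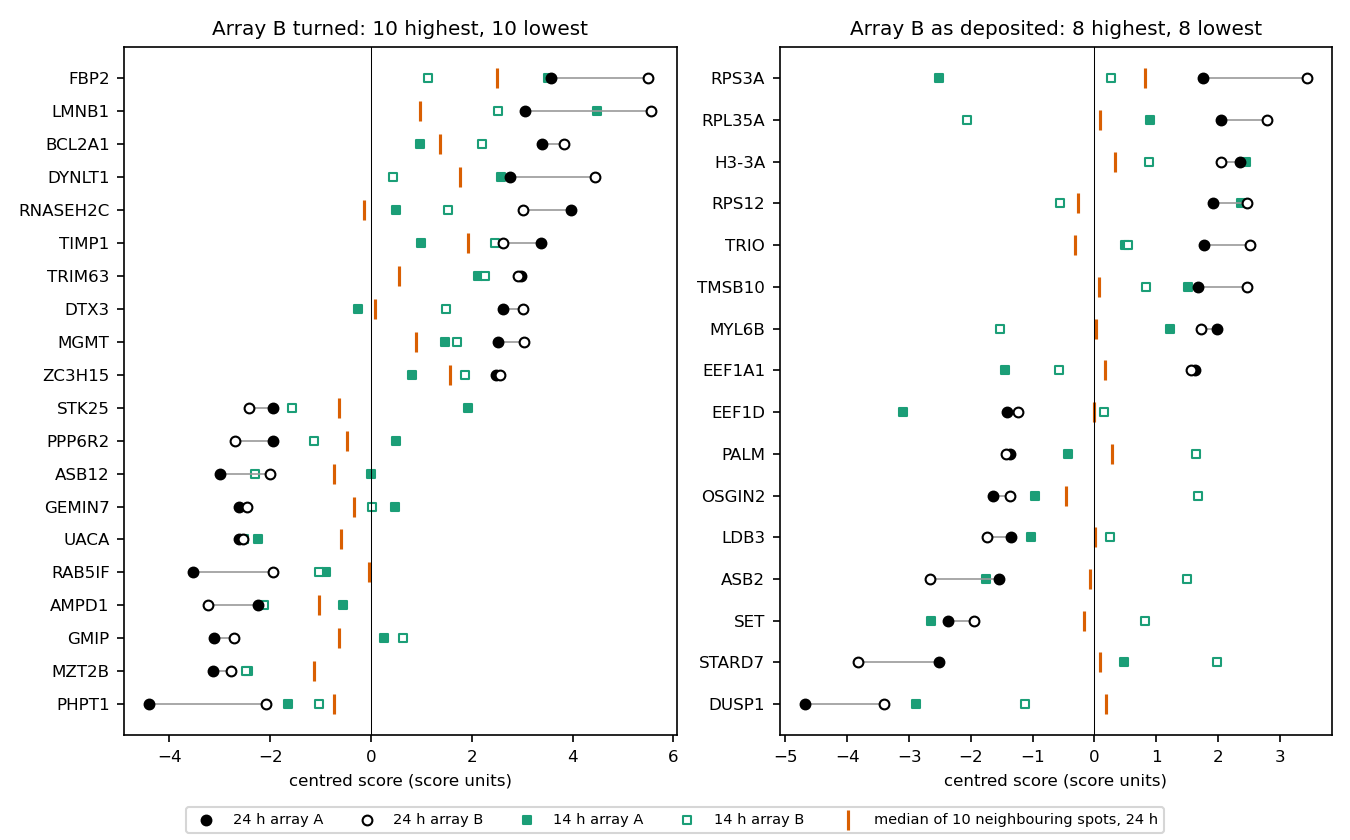
Centred scores (score units) of the leading genes with array B turned (left) and as deposited (right): circles are the 24 h arrays (filled A, open B), green squares the 14 h arrays (filled A, open B) and orange bars the median of the 10 neighbouring spots at 24 h. FBP2 and TRIM63 lie above 0 on all 4 arrays on the left, and DUSP1 lies below 0 on all 4 on the right.

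Some of the largest scores stood on 1 array. PCCB, a subunit of propionyl-CoA carboxylase, had 4.75 on array A and -0.41 on array B turned, and its 2 spots on array A gave -0.55 and 10.05. SERPINF1, TIMP3 and TAF12 had 4.59, 4.31 and 3.62 on array B turned against 0.42, -0.32 and -0.43 on array A, and in each the spots of array B lay far apart, at -0.84 and 10.02, -0.72 and 9.34, and -0.80 and 8.04. In SPTBN1, a spectrin, both spots of array B were high (3.77 and 4.65) with 0.16 on array A. On the lower side, the ATP synthase subunit ATP5F1B had -5.03 on array B turned and -0.14 on array A, with both spots of array B low (-5.46 and -4.60). PCBP2 (-5.40), ZMIZ2 (-4.07) and SLIRP (-3.88) were likewise low on array B turned with array A under 0.5 in size, and CKLF was low on array A (-4.13) with 0.17 on array B turned. In limma's test of a shift common to 14 h and 24 h with array B turned, SPTBN1 rose and CKLF fell (adjusted p = 0.0439 each), and the other 8 of these 10 genes did not pass.

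Genes that scored high in the turned reading tended to sit beside other high spots in the file. For each gene the median of the 10 nearest other spots in file order was taken at 24 h, and the sources used here do not say whether that order follows the position on the slide. That median reached 1 score unit for 96 of 2922 genes (3.29%), but for 52 of the 232 higher genes (22.4%). It was -1 or lower for 97 genes (3.32%) and for 23 of the 283 lower genes (8.13%). As deposited it reached 1 for 1 of 108 higher genes and was -1 or lower for none of 68 lower genes. FBP2 had neighbours at 2.51, TIMP1 at 1.93, DYNLT1 at 1.76, ZC3H15 at 1.57 and BCL2A1 at 1.36. TRIM63 had neighbours at 0.55, DTX3 at 0.08 and RNASEH2C at -0.15. Across genes, the score and that of its neighbours had an r of 0.30 turned and 0.11 as deposited. When each spot was centred on the running median of 11 spots, a window that also holds the gene's own spots, FBP2 had a mean of 1.77, TRIM63 of 2.47, LMNB1 of 2.86, RNASEH2C of 3.22, TIMP1 of 0.73 and ZC3H15 of 0.39. The part of the neighbourhood in these scores was not tested.

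**Figure D3:**
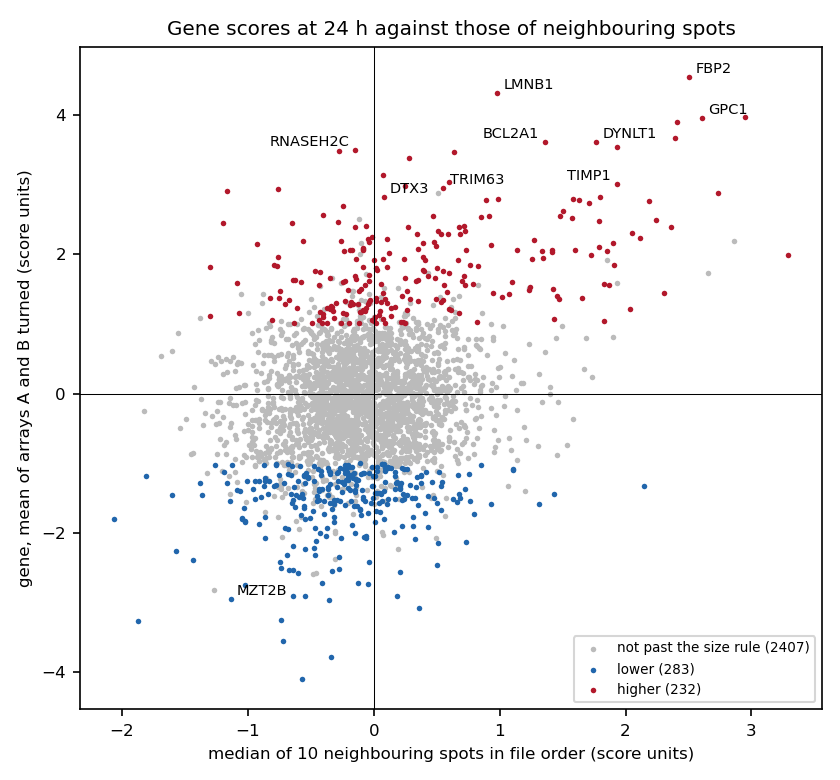
Mean score of each gene at 24 h with array B turned (vertical, score units) against the median of its 10 neighbouring spots in file order (horizontal, score units). Of the 232 higher genes (red) 52 have neighbours at 1 or more, among them FBP2 and TIMP1, while TRIM63, DTX3 and RNASEH2C do not.

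The comparison at 14 h, which shares no RNA with that at 24 h, shows which genes kept their sign in each reading. Were array B already conditioned over control, the turned mean would hold the difference between dye orientations, not between media. Whether a dye difference recurs at both hours was not tested. With array B turned, the means at 24 h and 14 h had an r of 0.53 across genes. Of the 232 genes higher at 24 h, 110 (47.4%) were higher at 14 h too, which is 41.4% of the 266 higher then, and 1 was lower. Both 14 h arrays lay above 0 for 156 of the 232 (67.2%), against 26.9% of all genes. Of the 283 lower genes, 85 (30.0%) were lower at 14 h, which is 27.0% of the 315 lower then, and 2 were higher. Both 14 h arrays lay below 0 for 165 of the 283 (58.3%), against 31.3% of all genes. As deposited, the means had an r of -0.06, and 8 of 108 higher genes (7.41%) and 5 of 68 lower genes (7.35%) passed the same way at 14 h. Both 14 h arrays had the same sign as at 24 h for 21 of those higher genes (19.4%), against 635 of all genes (21.7%), and for 11 of those lower genes (16.2%), against 585 of all genes. The neighbouring spots also kept their direction, with an r of 0.60 between the hours turned. The score minus that of its neighbours had an r of 0.41 turned and -0.04 as deposited.

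Limma's test of a shift common to 14 h and 24 h, on 1 value per hour and gene, called 90 genes up (3.08%) and 62 down (2.12%) with array B turned, at a Benjamini-Hochberg adjusted p below 0.05. Nothing in the labels says that the hours came from separate cultures, so these p-values measure only the spread between those values, which may be technical. AP2S1, a subunit of the clathrin adaptor, and the cell surface proteoglycan GPC1 had the smallest adjusted p (0.00199 each), with shifts of 4.25 ± 0.39 (SE) and 4.30 ± 0.40 and neighbours at 2.95 and 2.60. LMNB1 shifted by 3.91 ± 0.40 (adjusted p = 0.00249), FBP2 by 3.43 ± 0.53 (0.00904) and TRIM63 by 2.57 ± 0.40 (0.00956). On the lower side MZT2B shifted by -2.70 ± 0.39 (0.00774), UACA by -2.48 ± 0.38 (0.00904) and AMPD1 by -2.04 ± 0.44 (0.0342). DTX3 (0.0917), RNASEH2C (0.0504), GMIP (0.313) and GEMIN7 (0.292) did not pass. Of the 90 genes up, 84 were among the 232 higher at 24 h, and of the 62 down, 49 were among the 283 lower. The 24 h mean enters both the size rule and this test, so that overlap is in part built in. For a gene chosen by its 24 h score, here and elsewhere, a limma call is not independent support. Neighbours at 1 or more were found for 40 of the 90 genes up (44.4%). As deposited no gene passed (0.0%), the smallest adjusted p being 0.522 and 91 genes having an unadjusted p under 0.05. The number of calls changed with the arrays used and with the centring. With array A left out at both hours no gene passed in limma (303 at an unadjusted p under 0.05), with array B left out 71 were up and 57 down, after centring on 51 neighbouring spots 97 were up and 60 down, and after centring on 11 neighbouring spots 2 were up and none down (455 at an unadjusted p under 0.05).

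**Figure D4:**
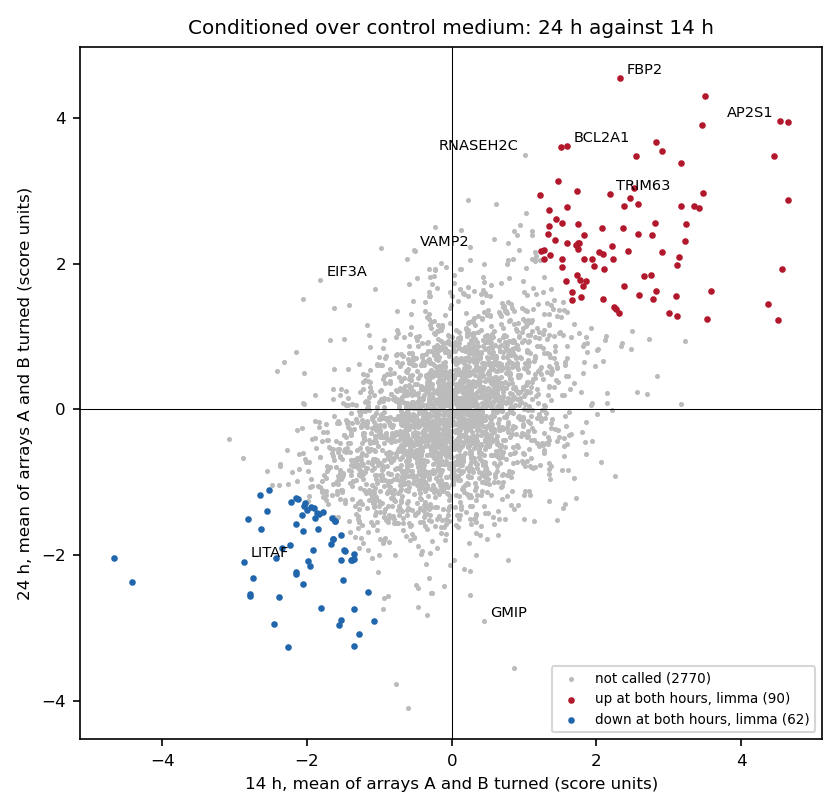
Mean of arrays A and B turned at 24 h (vertical) against 14 h (horizontal) for 2922 genes, in score units. Red and blue points are the 90 genes that limma called up and the 62 it called down for a shift common to 14 h and 24 h. The hours were not tested singly. FBP2, TRIM63 and BCL2A1 lie high at both hours, while GMIP is low at 24 h and VAMP2 and EIF3A are high at 24 h only.

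Of 21 genes of glycolysis, glycogen and lactate, 3 passed higher and none lower with array B turned, which is 14.3% of the list against 17.6% of all genes. As deposited 6.02% of all genes passed, and the counts of the lists below are to be read against these shares. Their median was 0.47 against -0.11 over all genes, or 0.19 and 0.16 after centring on 51 and 11 neighbouring spots, with medians of 0.41 on array A and 0.09 on array B turned. FBP2 rose in limma's test of the shift common to 14 h and 24 h. LDHA, lactate dehydrogenase A, scored 0.70 on array A and 2.41 on array B turned, but its spots on array B were -0.84 and 5.66. ALDOA, the aldolase of muscle, scored 0.75 and 1.88, but its 8 spots ran from -0.78 to 3.29 on array A and from 0.30 to 6.36 on array B turned. With the median over spots its mean of 1.31 went to 0.48, under the size rule. As deposited none of the 21 passed, and the median was -0.01. The TCA cycle held 2 of 20 genes higher, SUCLG1 (mean 1.46) and SDHD (1.35), and 1 lower, DLST (-1.03), and as deposited none passed.

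Genes of oxidative phosphorylation went both ways. Of 76 nuclear genes, 5 scored higher and 9 lower with array B turned (18.4%, near the 17.6% of all genes), with a median of -0.20. As deposited 2 scored higher and 1 lower (3.95% against 6.02% of all genes). Complex IV, cytochrome c oxidase, had the most on the lower side turned: 5 of its 13 genes were lower and 2 higher (53.8% against 17.6% of all genes). Its turned median was -1.06, or -0.96 and -0.49 after centring on 51 and 11 neighbouring spots. Complex IV had medians of -0.08 on array A and -1.19 on array B turned, so the low median stood mainly on array B. Its lower genes were COX4I1, COX6A1, COX7A2, COX7A2L and COX7B, with means between -1.20 and -1.06, and its higher genes were COX4I2 (1.40) and COX5B (1.16). None of the 13 genes of complex IV passed as deposited, where its median was 0.13. At 14 h the turned median of complex IV was 0.23. Turned, complex I had 3 of 33 genes lower, among them NDUFB7 (-0.75 on array A and -3.04 on array B turned), and none higher. Of 17 genes of ATP synthase, ATP5PF (3.16 and 2.32) and ATP5MK (2.35 and 1.78) scored higher and rose in limma (adjusted p = 0.0342 and 0.0475), with neighbours at 1.71 and 1.14, and none was lower. UQCRC2 of complex III scored -2.19 and -1.78. Mitochondrial ribosomal proteins, import proteins and carriers had 1 of 66 higher and 1 lower as deposited (3.03% against 6.02% of all genes). Turned, 3 were higher and 9 lower (18.2%, near the 17.6% of all genes). The lower ones were led by MRPL40 (-0.74 on array A and -5.06 on array B turned), MRPL22 (-0.78 and -4.65) and the import channel protein TIMM17B (-0.78 and -3.37), in each of which array A was small. MRPL40 and the iron carrier SLC25A28 fell in limma (adjusted p = 0.0245 and 0.0215), and 1 member of the list rose.

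In fatty acid uptake and oxidation 2 of 23 genes scored higher and 2 lower turned (17.4%, near the 17.6% of all genes). The fatty acid transporter CD36 scored 1.80 on array A and 2.08 on array B turned, and the hydratase ECHS1 scored 1.20 and 2.44. The isomerase ECI2 scored -1.49 and -1.54 at 24 h but 0.56 and 2.35 at 14 h, and HADHB of the trifunctional protein scored -1.19 and -1.38. As deposited only ETFDH passed, on the lower side.

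Of 22 genes of ubiquitin conjugation and muscle atrophy, 4 scored higher and 1 lower with array B turned, which is 22.7% of the list against 17.6% of all genes, and their median was -0.26. The 4 higher genes were TRIM63, its relatives TRIM55 (MuRF2, 1.58 on array A and 2.55 on array B turned) and TRIM54 (MuRF3, 1.46 and 1.65), and the cullin CUL1 (1.17 and 2.93). TRIM63 and TRIM55 rose in limma (adjusted p = 0.00956 and 0.0342), and 1 other member of the list fell, whereas TRIM54 was at -0.06 and -0.57 at 14 h. FBXO32, the F-box protein atrogin-1, did not pass: it scored -0.49 and -0.61, and its spots on array B turned were -3.50 and 2.28. The lower gene was the conjugating enzyme UBE2J2 (-0.96 and -2.07). As deposited none of the 22 passed in either direction.

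The proteasome had 4 of 22 genes higher and 5 lower turned, which is 40.9% of the list against 17.6% of all genes. In the as-deposited reading 1 of the 22 was higher and none lower (4.55% against 6.02% of all genes). PSMD9 scored 3.66 on array A and 1.73 on array B turned, with array A spots at 1.0 and 6.32. The assembly chaperone PSMG1 (1.80 and 2.54) rose in limma (adjusted p = 0.0475). PSMD2 (mean 2.03) and PSMC3 (1.99) had neighbours at 1.42 and 1.73. PSMA7 (-1.53) and the ubiquitin receptor PSMD4 (-1.5) led the lower side. In the list of lysosome, autophagy and calpain, 3 of 23 were higher and 1 lower turned (17.4%, near the share of all genes). The protease CTSC scored 1.33 and 2.70 and the autophagosome protein MAP1LC3B 1.32 and 1.90, and the calpain inhibitor CAST scored -1.84 and -0.76. The third higher gene, the proton pump subunit ATP6V0E1 (mean 1.40), had neighbours at 1.46 and turned to -0.25 after centring on 11 spots. The as-deposited reading placed 1 of these 23 genes higher and none lower (4.35%).

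Contractile genes gave few calls with array B turned. Of 47 sarcomere genes 4 scored higher and 1 lower turned, which is 10.6% against 17.6% of all genes. As deposited 3 scored higher and 2 lower, which is 10.6% against 6.02% of all genes. The regulatory light chain MYL2 had 2.39 on array A and 3.87 on array B turned and rose in limma (adjusted p = 0.0266). The troponin TNNC1 (1.58 and 0.98) rose as well (0.0353), TNNI1 (0.86 and 2.37) did not pass (0.0887), and the actin-binding protein XIRP1 (-1.14 and -2.97) fell (0.0432). As deposited the tropomyosin TPM1 had 1.80 on array A and 1.12 on array B, and the fast myosin MYH1 had a mean of -1.89. Calcium handling and excitation had 1 of 19 genes past the rule turned, the sodium pump regulator FXYD1 (-1.23 and -2.15), and none as deposited.

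Regulators of myogenesis split. Of 11 measured, ID3, which blocks MYOD1 and its partners, scored higher turned (0.84 on array A and 4.06 on array B), with array B spots at 0.04 and 8.07. MEF2C (-0.91 and -1.74), the cell cycle inhibitor CDKN1C (-0.86 and -1.49) and BIN1, which shapes T-tubules (-0.66 and -7.53), scored lower. Both array B spots of BIN1 were low, at -7.60 and -7.46, while CDKN1C had array A spots at -2.55 and 0.84. None of the 4 passed limma (adjusted p from 0.0504 for ID3 to 0.133 for MEF2C). MYOD1 was high on array A (2.83) and near 0 on array B turned (0.11), so it passed in neither reading. As deposited only TEAD4 passed, at a mean of -1.27.

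Matrix and adhesion genes had 4 of 27 higher and 2 lower turned (22.2% against 17.6% of all genes), with a median of 0.26, and none past the rule as deposited. The 4 higher genes all rose in limma: GPC1, TIMP1 (adjusted p = 0.0196), the muscle laminin receptor ITGA7 (2.07 on array A and 1.18 on array B turned, 0.0232) and ITGB1BP2, or melusin (1.92 and 3.04, 0.0152). GPC1, TIMP1 and ITGB1BP2 had neighbours at 2.60, 1.93 and 1.79, and ITGA7 at -0.62. TIMP2 (-0.65 and -1.48) and thrombospondin THBS1 (-1.11 and -1.03) were the lower ones, and THBS1 was above 0 on both 14 h arrays.

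Ribosomal proteins took opposite sides in the readings. As deposited 12 of 66 scored higher and none lower, 18.2% of the list against 6.02% of all genes. Their median was 0.53 against 0.03 over all genes, with medians of 0.28 on array A and 0.90 on array B. The as-deposited median went to 0.20 and 0.15 after centring on 51 and 11 neighbouring spots. RPS3A (mean 2.60), RPLP1 (2.48), RPL35A (2.42), RPS18 (2.31), RPS12 (2.19) and RPS10 (2.17) led them, and RPLP1 had array B spots from 1.03 to 7.66. Small-subunit proteins had 6 of 24 higher and large-subunit proteins 6 of 41. Turned, 2 scored higher and 6 lower, and the median was -0.44, or -0.09 after centring on 51 neighbouring spots. RPL7 (-2.10 on array A and -1.19 on array B turned) and RPL22 (-2.16 and -1.71) fell in limma (adjusted p = 0.0342 and 0.0387). RPS16 (2.26 and 1.60) rose (0.0174), with neighbours at 1.26. Ribosomal protein genes have many near-identical copies, so the gene behind a spot is uncertain.

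Translation factors had 4 of 35 higher and 8 lower turned (34.3% against 17.6% of all genes), with a median of -0.43. In the as-deposited reading 2 were higher and 2 lower (11.4% against 6.02% of all genes), with a median of -0.06. The elongation factor EEF2 scored 2.34 on array A and 2.46 on array B turned and rose in limma (adjusted p = 0.037). The cap-complex proteins EIF4G1 (-3.46 and -1.23) and EIF4A1 (-1.91 and -2.60) fell (0.0311 and 0.0154), and EIF4A1 had neighbours at -1.57. EIF2B1 (mean -1.56) and the poly(A)-binding protein PABPC1 (-1.57) were also lower. EIF3A scored 0.75 and 2.81 at 24 h and -2.36 and -1.28 at 14 h.

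Chaperones and folding proteins had 6 of 42 higher and 6 lower turned (28.6% against 17.6% of all genes). As deposited 5 were higher and none lower (11.9% against 6.02%). The subunits of the TRiC chaperonin did not move as 1 group: CCT2 (1.69 on array A and 3.40 on array B turned) and CCT3 (0.77 and 3.55) rose in limma (adjusted p = 0.0212 and 0.00993, neighbours at 0.91 and 1.90), TCP1 (-0.71 and -3.75) scored lower, and CCT5 and CCT7 passed only as deposited, with means of 1.27 and 1.49. The array A spots of CCT5 (-0.94 and 1.99) and of CCT7 (-1.42 and 4.64) lay on either side of 0. After centring on 11 spots the means of CCT2 and CCT3 went from 2.54 to 0.91 and from 2.16 to 0.23. DNAJC7 rose (0.0152) but had neighbours at 2.11, and its mean of 2.24 went to 0.03 after centring on 11 spots. HSP90B1, the HSP90 of the endoplasmic reticulum, scored -1.92 and -1.77 and fell (0.0342). The cyclophilin PPIA led the as-deposited side with a mean of 1.93.

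In insulin, IGF and AKT signalling 5 of 21 genes scored higher and none lower turned (23.8% against 17.6% of all genes). As deposited 2 scored lower and none higher (9.52% against 6.02%), with a median of -0.45. The catalytic subunit of protein phosphatase 2A, PPP2CA, scored 2.45 on array A and 5.35 on array B turned and rose in limma (adjusted p = 0.00249), with neighbours at 2.41. IGFBP2 (1.58 and 2.12) rose too (0.0334), but its mean of 1.85 turned to -0.32 after centring on 11 spots. AKT1 scored 0.70 and 2.80, and the translation repressors EIF4EBP1 (1.21 and 1.49) and EIF4EBP2 (0.93 and 3.18) were the others. The as-deposited lower genes were IGFBP4 (mean -1.15) and the kinase STK11 (-1.03).

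Inflammatory and interferon genes had 1 of 19 higher, BCL2A1, and 5 lower turned (31.6% against 17.6% of all genes). LITAF, a lysosomal protein induced by lipopolysaccharide, scored -2.51 on array A and -1.66 on array B turned and fell in limma (adjusted p = 0.0114). The interferon-induced IFITM1 scored -1.04 and -2.04 and fell (0.0476). TNFRSF12A, the TWEAK receptor (mean -1.31), the kinase TYK2 (-1.08) and S100A9 (-1.03) were the other lower genes. As deposited the cytokine MIF (1.42) and the NF-kB subunit RELA (1.48) were higher. Limma called 2 of the 19 up and 2 down. The list's median was -0.36 turned but 0.06 after centring on 51 neighbouring spots.

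Immediate early and stress kinase genes had none of 17 higher and 2 lower turned, IER3 (-2.55 on array A and -0.66 on array B turned) and FOSL2 (-1.38 and -0.94), with a median of -0.61. None passed limma. As deposited DUSP1 and the early transcription factor EGR1 were lower and IER5 higher (mean 1.09). EGR1 had -1.13 on array A and -2.89 on array B as deposited, while its 14 h arrays as deposited were both above 0.

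Cell cycle and nuclear genes had 2 of 18 higher, LMNB1 and the tubulin regulator STMN1 (mean 1.23), and 2 lower turned (22.2% against 17.6% of all genes). The centromere protein CENPT, one of the lower genes, scored -0.72 on array A and -4.35 on array B turned and fell in limma (adjusted p = 0.00774). The tubulin TUBB (-1.06) was the other. As deposited the kinase CDK4 (1.37) and the helicase subunit MCM3 (1.16) were higher and the checkpoint protein BUB3 (-1.70) lower. Oxidative stress genes had 2 of 30 higher and 2 lower turned (13.3%). ROMO1, a regulator of reactive oxygen in mitochondria, rose in limma (adjusted p = 0.00534) at 2.35 and 3.41, with neighbours at 2.74 and a mean of 0.41 after centring on 11 spots, and GPX4, which reduces lipid peroxides, had a mean of 1.67. As deposited MT2A (1.56), SOD1 (1.5) and MT1X (1.16) were higher and none lower.

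Membrane traffic had 6 of 40 higher and 4 lower turned (25% against 17.6% of all genes), and limma called 3 up and 2 down. AP2S1 scored 2.09 on array A and 5.83 on array B turned and AP2A1, another subunit of the same adaptor, scored 1.44 and 3.01. RAB40B (1.85 and 2.65) rose in limma (adjusted p = 0.0236). The SNARE protein VAMP2 scored 1.53 and 2.84 at 24 h, and -0.10 and -0.94 at 14 h. RAB2A, a GTPase of the early secretory pathway, scored -1.86 and -4.30 and fell (0.0353), with neighbours at 0.36. As deposited RAB7A, TMED2 and ARF5 were lower, with means of -2.21, -1.36 and -1.08, and 1 other gene was higher (10% against 6.02% of all genes).

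In the list of actin, tubulin and motors, 3 of 33 genes scored higher and 5 lower turned (24.2% against 17.6% of all genes), with a median of -0.39. Read as deposited, 1 was higher and none lower (3.03% against 6.02% of all genes). DYNLT1 rose in limma (adjusted p = 0.0249), as did PAFAH1B1 (LIS1, 0.0311), whose mean of 1.44 turned to -0.52 after centring on 11 spots. The Arp2/3 subunit ARPC4 (-3.36 on array A and -1.67 on array B turned), the muscle cofilin CFL2 (-1.05 and -2.19) and the smooth muscle protein TAGLN (-1.35 and -1.11) were lower. Of 50 splicing and RNA-binding genes, 1 was higher and 1 lower as deposited (4%). Turned, 4 were higher and 5 lower (18%, near the share of all genes). The nuclear ribonucleoproteins HNRNPU (-1.69 and -1.58), HNRNPA0 (-2.71 and -1.14) and HNRNPAB (-1.87 and -1.68) were below 0 on all 4 matched arrays and fell in limma (adjusted p = 0.0232, 0.024 and 0.0369), as did 1 further member of the list, and none rose.

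Aminoacyl-tRNA synthetases and enzymes of amino acids and nucleotides had 2 of 19 higher and 4 lower turned (31.6% against 17.6% of all genes). Their median was -0.55. Spermine synthase SMS (2.27 on array A and 4.82 on array B turned) and glutamine synthetase GLUL (1.09 and 2.76) rose in limma (adjusted p = 0.00534 and 0.0221), with neighbours at 1.93 and 0.67. AMPD1 and the creatine kinase CKB (-1.36 and -1.43) fell in limma (adjusted p = 0.0342 each), and after centring on 51 spots the mean of CKB went from -1.40 to -0.84, under the size rule. Adenylate kinase AK1 (mean -1.37) did not pass limma (adjusted p = 0.16). The creatine kinases CKM (mean -0.33) and CKMT2 (-0.68) passed neither the size rule nor limma. None of the 19 passed the size rule as deposited. Of 14 S100 proteins and annexins 5 scored lower turned and none higher (35.7% against 17.6% of all genes), with the lowest list median, -0.92, or -0.51 after centring on 11 spots. These were ANXA2 (mean -1.75), ANXA7 (-1.37), ANXA5 (-1.13), ANXA11 (-1.06) and S100A9, and none of them passed limma, though 1 other member rose. S100A6 was higher as deposited, at 2.47. The list of apoptosis and survival held 1 of 13 higher turned, BCL2A1, and 1 higher as deposited, the nuclease ENDOG (1.57). ENDOG had array A spots at -1.08 and 2.52.

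**Figure D5:**
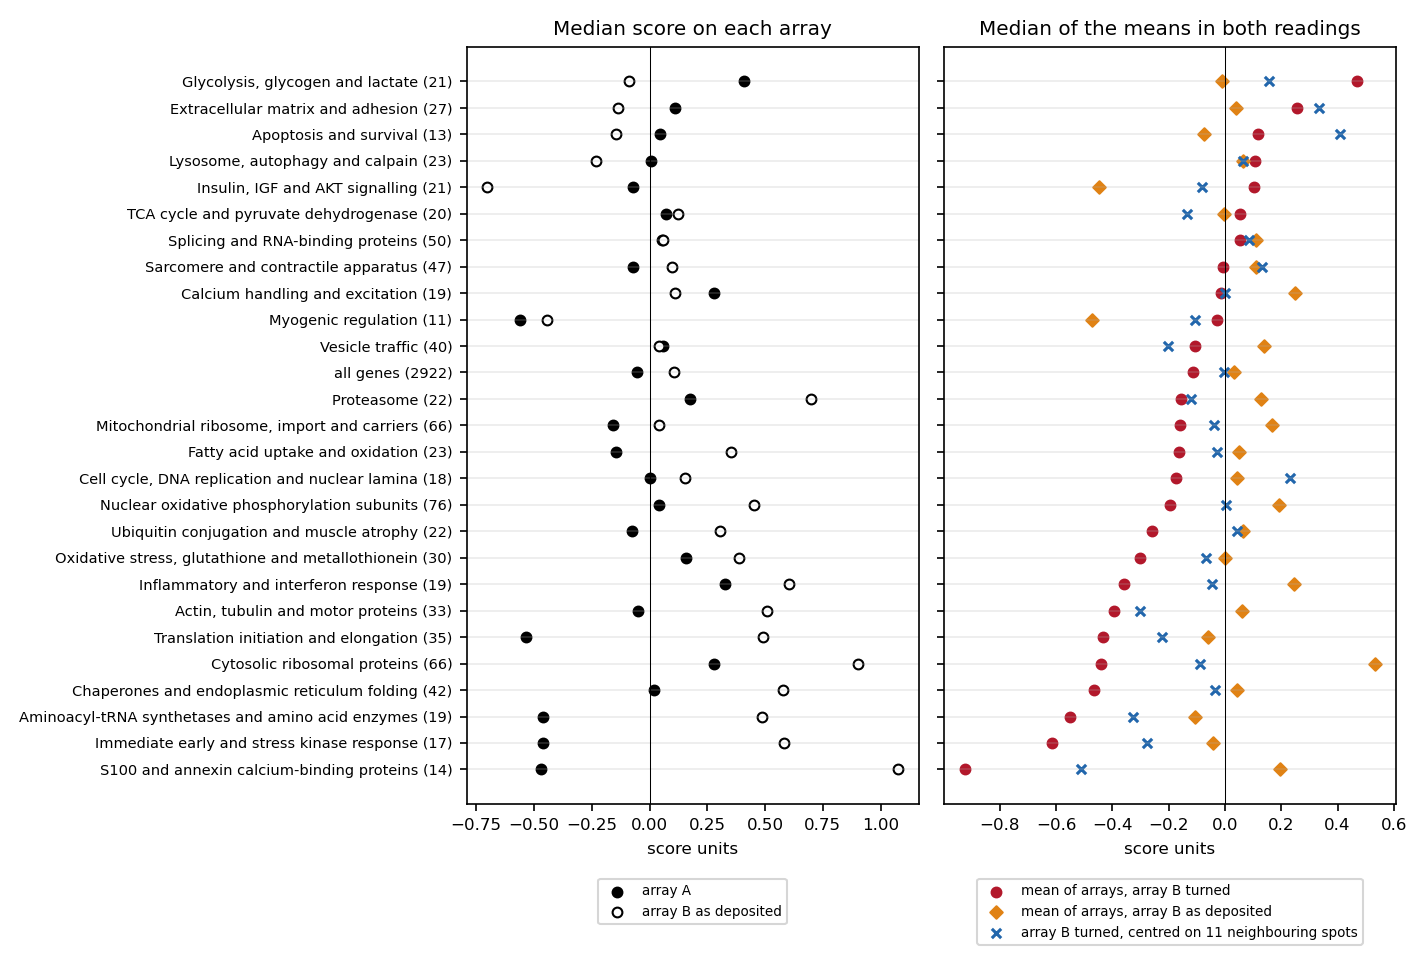
Medians (score units) over the genes of each list, with the number of genes measured in brackets: on the left on array A and on array B as deposited, on the right of the means over both arrays in both readings and after centring on 11 neighbouring spots. S100 proteins and annexins have the lowest turned median (-0.92), glycolysis the highest of those shown (0.47), and cytosolic ribosomal proteins the highest as deposited (0.53).

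Markers of cell types were read as scores between media, since the deposited values hold no level of a gene in either medium. Of 6 myoblast markers ITGA7 was higher turned, MYOD1 and NCAM1 had turned means of 1.47 and 1.91 on the strength of 1 array each, and DES (mean -0.75), VIM (-0.99) and CHRNA1 (0.67) did not pass. Of 14 blood markers 2 were higher and 2 lower turned. HBA2 (1.96 on array A and 5.0 on array B turned) and CD37 (2.21 and 4.55) rose in limma (adjusted p = 0.00249 and 0.00488), and HLA-DRB1 (-1.09 and -4.82) fell (0.0236). HBA1, a near-identical copy of HBA2 in human, was lower (-0.87 and -1.62), so which globin transcript these spots report is uncertain. CD48 passed as deposited (mean 3.68), on array A spots of -0.65 and 13.8. Of 5 endothelial markers CLDN5 was lower (-1.05 and -2.27), of 7 fibroblast and smooth muscle markers MYH11 was higher (mean 1.92) and TAGLN lower, and none of 4 adipocyte or 3 epithelial and carcinoma markers passed in either reading. The part of any other cell type in these scores was not tested.

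The arrays that set the same 24 h conditioned RNA against control RNA of 0 h share that RNA with the comparison above, so their values are given side by side only. TRIM63 had 0.65 on array A and -1.46 on array B turned against 0 h, where it had 2.98 and 2.93 against 24 h. FBP2 had -1.42 and -2.11 against 0 h and 3.58 and 5.50 against 24 h. LMNB1 had 0.52 and 0.31 against 0 h. RNASEH2C had 3.02 and 0.38, and BCL2A1 had 1.36 and 0.80, above 0 against both controls. UACA (1.59 and 0.81) and AMPD1 (0.88 and 0.54) were above 0 against 0 h and below 0 against 24 h. DUSP1 as deposited had -2.96 on array A and 4.91 on array B against 0 h, so its arrays opposed each other there in that reading. With array B turned, DUSP1 had -2.96 and -4.91 against 0 h, past the size rule on the lower side. TRIM55 had 0.98 and 1.5, and so was above 0 against both controls with array B turned.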

How the data were processed

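Total RNA of C2C12 cells (Trizol, checked on a Bioanalyzer) was labelled directly with Cy3 or Cy5 dCTP, per the labels' protocols. The deposited values are scores with a sign, 9984 spots an array. The steps by which the authors made the score (background correction, normalisation, scale, direction) were not given in the sources used here. On the arrays of 24 h conditioned against 0 h control RNA, scores reached 24.8 (array A) and -23.6 (array B). A log2 ratio of scanner channels cannot reach that far, so no fold changes are given. The 2 arrays described here stayed between -9.94 and 13.8. Signal over background is unknown, and the number of arrays limits the precision.

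Per the platform annotation of 2016, 6610 spots name 1 gene, 106 name several and 3268 are unnamed here. Each array was centred on its median and spots were averaged to 2922 genes, 281 of them with more than 2 spots. The only test was limma 3.58.1 (lmFit and eBayes, R 4.3.3) on the means of arrays A and B at 14 h and 24 h, intercept against 0, two-sided, with Benjamini-Hochberg adjustment over all genes and a threshold of 0.05. The array letter is the dye orientation and pairs no cultures. With array B turned, the deviation of array A from its pair mean at 14 h and 24 h had an r of -0.06. As deposited that deviation equals the turned mean, which had an r of 0.53 between the hours.

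Named genes are the 10 highest and 10 lowest turned and the 8 highest and 8 lowest as deposited, by the smaller of the sizes on the 2 arrays, the 5 each way that are large on 1 array with the other under 0.5, up to 6 members past the size rule per list and reading (every member of lists of up to 6), and 10 genes of glucose use, protein breakdown and myogenesis. The COX genes of complex IV were named after their values were seen. The comparison, lists and rules were chosen with earlier results of these data known. Alternatives were other centring, scaling, spot summaries, thresholds, the reading of array B and each array left out. Mouse promoters matched 2246 of the genes by symbol.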

Additional observations from a re-analysis of the deposited data

Results flagged for a closer look

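Some genes past the size rule at 24 h stood on the other side of 0 on both 14 h arrays; the difference between the hours was not tested, and no group holds enough arrays to look for a single outlying one. With array B turned, 14 h means above 0 against lower scores at 24 h were seen for the isomerase ECI2 (1.45), the annexin ANXA7 (0.86), THBS1 (0.67), GMIP (0.44), the globin HBA1 (0.34), GEMIN7 (0.25) and TIMM17B (0.033). EIF3A (-1.82), VAMP2 (-0.52), MAP1LC3B (-0.32) and TRIM54 (-0.32) were below 0 at 14 h and higher at 24 h. With array B as deposited, the splicing factor PRPF3 (2.99), STARD7 (1.23), EGR1 (1.23), TEAD4 (0.86) and the electron transfer enzyme ETFDH (0.81) were above 0 at 14 h and lower at 24 h. EEF1A1 (-1.01), TPM1 (-0.87), the folding protein DNAJB9 (-0.79) and calnexin, CANX (-0.34), were below 0 at 14 h and higher at 24 h.

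Spots without a gene name, which the comparisons above do not use, also passed the size rule. Of 1634 unnamed pairs of adjacent spots, 441 (27.0%) passed turned, 317 higher and 124 lower, against 608 of 3305 named pairs (18.4%). As deposited 119 unnamed pairs (7.28%) and 222 named pairs (6.72%) passed.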

How the results depend on the processing

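The counts of genes past the size rule at 24 h changed with the reading of array B, the size threshold, the centring and the arrays and spots used. As deposited, 108 scored higher and 68 lower. All other settings for these counts had array B turned, where the main setting gave 232 higher and 283 lower. With a mean of at least 2 and each array at least 1 there were 79 and 29. Requiring every spot, an alternative added after the data were seen, gave 136 and 166, and array B or array A alone gave 398 to 472 higher and 509 to 552 lower. Centring on 11 neighbouring spots gave 166 lower. Higher genes made up 45% of calls in the main setting, 61.4% as deposited and 73.1% under the stricter sizes. The remaining settings for these counts gave 181 to 286 higher and 222 to 375 lower.

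For the shift common to 14 h and 24 h, 152 genes passed limma. As deposited 0 passed, with the array letter as a replicate block 28 (20 up, 8 down), after centring on 11 spots 2, and with array A or array B left out 0 to 128. Centring on 51 spots gave 157 and the median over spots 189.

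Of 980 values of named genes under another centring, scaling or spot summary, 852 stayed within the spread between the arrays and 125 moved beyond it, 74 of these with 11-spot and 45 with 51-spot centring. Turned to the other sign after 11-spot centring were ATP6V0E1 (-0.25), IGFBP2 (-0.32) and PAFAH1B1 (-0.52). That setting moved the median of all genes from -0.11 to -0.003, and the cause of these changes was not tested.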
